A study of Mus musculus with 8 samples.

Results

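The collagen genes of brown adipose tissue (BAT), the fat depot that burns lipid to make heat, were compared between WT and Cd36KO mice by bulk RNA-seq. The genes were all rows of the count table whose mouse symbol consists of Col, a number, the letter a and a number, which gave 44 of 31053 gene identifiers. They were sorted by the structure that the protein forms into 11 fibrillar, 8 basement membrane, 10 network and 9 fibril-associated genes, with 6 transmembrane and other genes.

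Each group had 4 libraries, from C57BL6/J mice that the labels give as 8 weeks old. Cd36 encodes a cell-surface receptor for fatty acids and oxidized lipids. The labels name the mutant only as Cd36KO, and nothing in them says what its WT controls carry. The study made a germline deletion and a macrophage-restricted deletion, in which CD36 flox/flox mice carried Csf1r Cre, a driver active in myeloid cells, and it attributes its BAT transcriptome to the latter, for which its methods give 10 weeks of age and its figure legends, like the labels, 8 weeks. Cd36 transcript, read here as a check of the labels, was at 2796, 2958, 3505 and 2412 normalized counts (counts divided by the size factor of the library) in WT replicates 1 to 4. It was at 1926 in the Cd36KO library whose count column has no replicate number, called the unnumbered library, and at 2109, 2384 and 1930 in Cd36KO replicates 2 to 4. All Cd36KO values were below all WT values, though the adjusted p over all genes was 0.0602 in DESeq2, and the transcript was still abundant in every Cd36KO library.

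Total counts ran from 2679785 to 4097953 per library. The labels also name the stromal vascular fraction as the cell type. Yet the 9 genes of the brown adipocyte list, such as Ucp1 and the general adipocyte gene Adipoq, summed to 33554 to 50485 normalized counts in each of the 8 libraries. The methods describe male mice only, whereas Xist had 772 to 1588 counts in all 8 libraries, and of the genes on the Y chromosome Ddx3y had 0 to 3 counts and Eif2s3y, Kdm5d and Uty 0. WT replicate 1 stood apart from the other WT libraries. Its 8 white fat markers summed to 598 normalized counts, while the remaining WT libraries had 2784 to 3843, and its 12 skeletal muscle markers summed to 55305 against 669 to 11745.

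Collagens are the main structural proteins of the extracellular matrix, built from chains that wind around each other into a long helix inside the cell before secretion. Fibrillar collagens, mainly types I, III and V, pack into the fibres that give a tissue tensile strength, and in fat they come chiefly from stromal fibroblasts. Type IV collagen forms the sheet-like scaffold of basement membranes, which in fat coat every adipocyte and line the vessels. Type VI collagen forms beaded filaments around adipocytes, and fibril-associated collagens decorate the surface of fibres. Enzymes of the endoplasmic reticulum hydroxylate, glycosylate and fold the chains, proteases cut off the propeptides outside the cell, and lysyl oxidases crosslink the fibres.

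Of the 44 genes, 39 had at least 1 count, 25 had counts in all 8 libraries, and 14 were counted in only some libraries, with at most 17 counts in total. The 5 genes without a count were Col2a1 and Col10a1, a pair of cartilage collagens, and Col6a4, Col8a2 and Col26a1. A count of 0 allows up to 3 counts, which corresponds to 0.732 to 1.12 CPM (counts per 1000000 counts of the library) in these libraries and covers counting error only. DESeq2 gave an adjusted p to 21 genes, all with a mean of at least 11.2 normalized counts over the 8 libraries. The 18 other counted genes had a mean of at most 9.48 and no adjusted p in that fit. The genes for the minor type IV chains were among these, with 76 counts in total for Col4a4, 16 for Col4a5, 9 for Col4a3 and 5 for Col4a6. The 13 genes described one by one here held 95.0% of all collagen counts.

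To compare levels between genes, CPM were divided by the summed exon length in kilobases. On this scale Col4a1 was the highest collagen gene in WT at 37.7 ± 7.05 CPM per kb (SD, n = 4). Col4a2, its partner chain in the basement membrane scaffold, followed at 22.3 ± 3.14, Col3a1 at 22.2 ± 4.75, Col1a1 at 19.4 ± 4.99 and Col1a2 at 18.99 ± 6.30 CPM per kb (SD, n = 4 each), and these 4 neighbours did not differ by more than their spread. Col5a3 was at 10.6 ± 3.33 CPM per kb, and the type VI genes Col6a3, Col6a1 and Col6a2 were at 6.77 ± 1.58, 6.51 ± 1.52 and 5.40 ± 0.912 (SD, n = 4 each), again in an order within their spread. In Cd36KO the levels were 36.3 ± 4.81 for Col4a1, 20.1 ± 3.34 for Col4a2, 14.2 ± 2.81 for Col3a1, 14.9 ± 3.21 for Col1a1 and 8.37 ± 2.13 CPM per kb for Col1a2 (SD, n = 4 each). Col1a2 thus stood below Col1a1 per length in Cd36KO, though not in mean normalized counts, at 330 against 313. The summed length covers all annotated exons, 12426 bases for Col1a2 and 6563 for Col1a1, so the order per length depends on the annotation. Whether reads spread over the whole transcript in this library type is not given in the sources used here, so the order between genes is less certain than the comparison of a gene between groups.

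**Figure D1:**
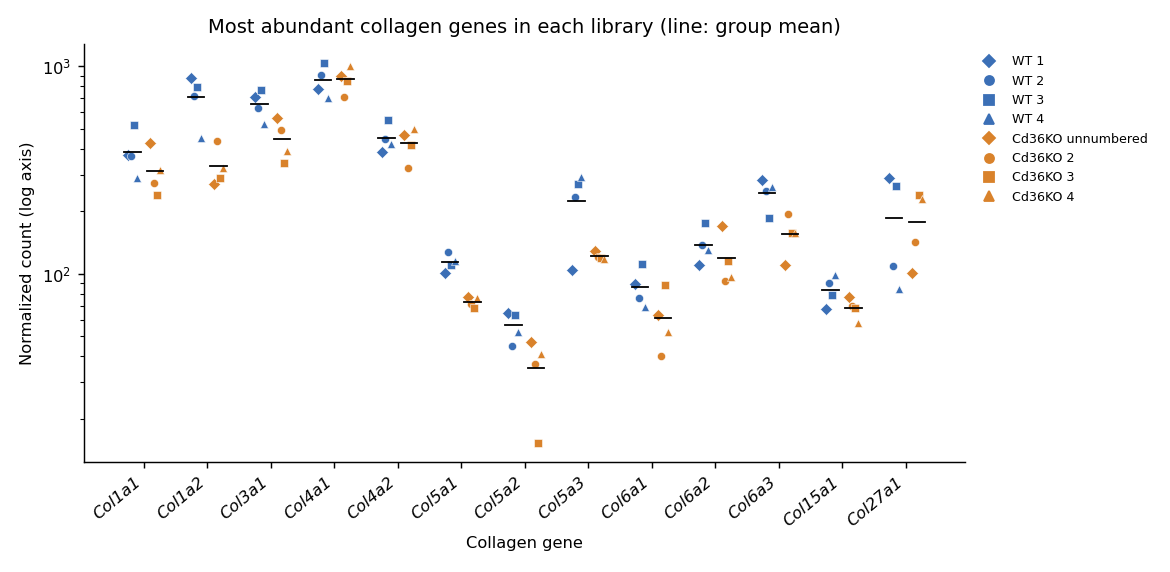
Normalized counts (log axis) of the 13 collagen genes described one by one, in each of 4 WT (blue) and 4 Cd36KO (orange) libraries, with the group mean as a line and replicate numbers as symbols. Col1a2 runs from 448 to 877 in WT and from 272 to 435 in Cd36KO, Col5a1 is also parted between the groups, and Col4a1 and Col4a2 overlap.

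The comparison asked which collagen genes differed between the libraries labelled Cd36KO and WT. Of the 21 genes tested, 2 were lower in Cd36KO at an adjusted p under 0.05 in DESeq2, where 1.53% of all 9619 genes tested were called lower, and 0 were higher, where 1.42% of all genes were. Both genes called were fibrillar, Col1a2 and Col5a3. The log2 fold change was negative for 16 of the 21 and positive for 5, with a median of -0.30, beside a median of -0.0088 over all genes tested. At an unadjusted DESeq2 p under 0.05, 8 of the 21 were lower and 0 were higher, and the shares of all genes were 7.88% and 7.69%. The quasi-likelihood test of edgeR called 0 of 22 collagen genes lower at an adjusted p under 0.05, where it called 0.102% of all genes lower, and 8 of the 22 were lower at an unadjusted p under 0.05, as were 8.9% of all genes. The lowest edgeR adjusted p of a collagen gene was 0.0895, for Col1a2. Limma on the authors' log2 values called 0 collagen genes, with 8 lower at an unadjusted p under 0.05, but it called 0% of all 9793 genes lower, with 7.79% lower at an unadjusted p under 0.05.

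By type, all 7 fibrillar genes tested had a negative log2 fold change, with a median of -0.63, and 2 were called lower. The fibrillar gene closest to 0, Col27a1, was at -0.06 (SE 0.38) and turned positive in several other fits. The 4 basement membrane genes tested had a median of -0.19 (3 negative, 1 positive), the 5 network genes -0.22 (4 negative, 1 positive), the 3 fibril-associated genes -0.03 (2 negative, 1 positive) and the 2 transmembrane and other genes 0.36 (both positive), and 0 of these 14 genes were called in either direction by DESeq2 or edgeR. At an unadjusted p under 0.05, 3 of the 14 were lower, namely Col6a3, Col14a1 and Col18a1, the latter pair singled out after their values were seen.

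**Figure D2:**
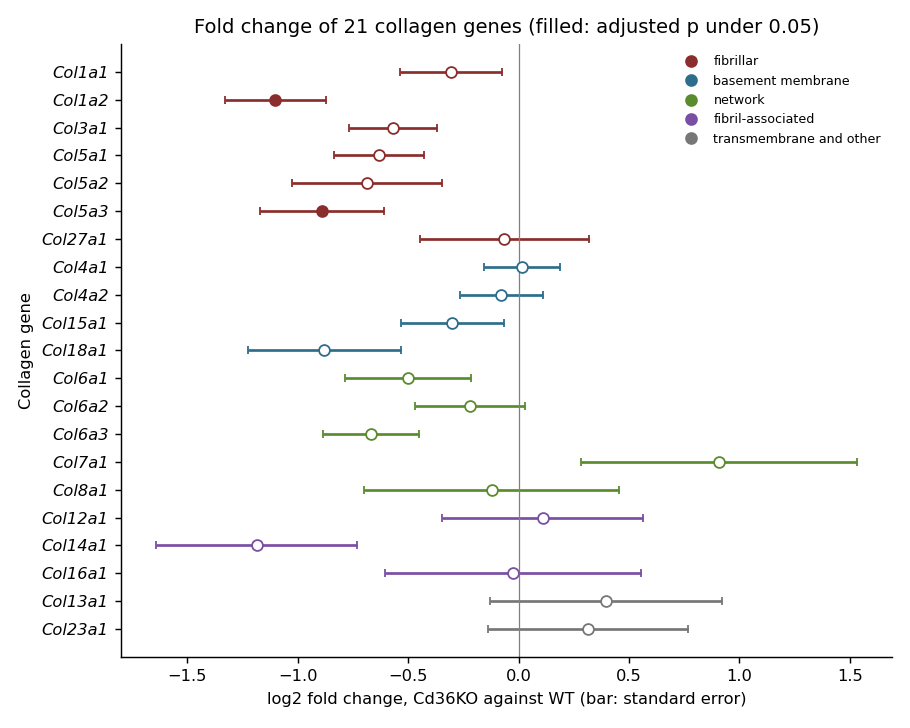
Log2 fold change of Cd36KO against WT (x axis; bars are the DESeq2 standard error) for the 21 collagen genes tested, coloured by type, with filled points for an adjusted p under 0.05. The 7 fibrillar genes all lie left of 0, Col1a2 at -1.10 and Col5a3 at -0.89 are the only filled points, and Col4a1 and Col4a2 lie at 0.016 and -0.078.

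Type I collagen is the bulk protein of most fibres, and its usual molecule holds a pair of alpha-1 chains from Col1a1 and a single alpha-2 chain from Col1a2. Col1a2 (ENSMUSG00000029661, GRCm38 chromosome 6, 4504814 to 4541544, plus strand) was at 877, 715, 789 and 448 normalized counts in WT replicates 1 to 4. It was at 272 in the unnumbered Cd36KO library and at 435, 289 and 323 in Cd36KO replicates 2 to 4. The groups did not overlap, although WT replicate 4 was only just above Cd36KO replicate 2, and in CPM this pair changed order, with 131 in WT replicate 4 and 141 in Cd36KO replicate 2. Col1a2 was 2.14-fold lower in Cd36KO, a log2 fold change of -1.10 (standard error, SE, 0.23; DESeq2 adjusted p = 0.000724; exact two-sided permutation p = 0.0571 on log2 CPM, n = 4 each, where the smallest possible p is 0.0286). Without WT replicate 1, the library that stood apart, the log2 fold change was -0.98 (DESeq2 adjusted p = 0.00138).

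Col1a1 (ENSMUSG00000001506, chromosome 11, 94936224 to 94953042, plus strand) was at 371, 368, 522 and 289 normalized counts in WT and at 424, 274, 239 and 316 in Cd36KO, in the same library order. The groups overlapped widely, and the unnumbered Cd36KO library, the lowest in Col1a2, was above 3 of the 4 WT libraries in Col1a1. The log2 fold change of Col1a1 was -0.31 (SE 0.23; DESeq2 adjusted p = 0.570). Col3a1 (ENSMUSG00000026043, chromosome 1, 45311538 to 45349706, plus strand), whose product forms homotrimers that mix with type I in thin fibres, was at 713, 628, 770 and 525 normalized counts in WT and at 560, 490, 341 and 389 in Cd36KO. Only the unnumbered Cd36KO library lay above the lowest WT library, and the log2 fold change was -0.57 (SE 0.20; DESeq2 adjusted p = 0.0953). Without WT replicate 4 it was -0.66 and passed the threshold (DESeq2 adjusted p = 0.0195). That was the only call of Col3a1 in 19 fits, the main fit and its 18 alternatives, and its DESeq2 adjusted p reached 0.543.

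Type V collagen sits in the core of type I fibres and sets their diameter. Its main molecule is made of chains from Col5a1 and Col5a2, and Col5a3 gives a less common chain. Col5a1 (ENSMUSG00000026837, chromosome 2, 27886425 to 28039514, plus strand) was at 101, 127, 111 and 115 normalized counts in WT and at 76.9, 71.3, 68.5 and 76.3 in Cd36KO. All 4 Cd36KO values lay below all 4 WT values, on both the normalized count and the CPM scale. The log2 fold change was -0.63 (SE 0.20), which did not pass over all genes (DESeq2 adjusted p = 0.0590; exact two-sided permutation p = 0.0286, n = 4 each, which is the smallest possible value). With TMM factors in place of the DESeq2 size factors, the adjusted p was 0.0474 at a log2 fold change of -0.63. Col5a1 was called in no other of the 19 fits, and its DESeq2 adjusted p reached 0.683.

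Col5a2 (ENSMUSG00000026042, chromosome 1, 45374321 to 45503282, minus strand) was at 65.0, 45.0, 63.5 and 52.4 normalized counts in WT and at 46.8, 36.8, 15.3 and 41.2 in Cd36KO. The fold change was -0.69 on the log2 scale (SE 0.34; DESeq2 adjusted p = 0.299), and Cd36KO replicate 3 was by far the lowest library. The groups overlapped by a single pair of libraries in normalized counts and did not overlap in CPM.

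Col5a3 (ENSMUSG00000004098, chromosome 9, 20770050 to 20815067, minus strand) showed another distribution. It was at 105, 234, 269 and 293 normalized counts in WT replicates 1 to 4 and at 128, 121, 119 and 117 in the Cd36KO libraries. Thus 3 WT libraries were well above all others, while WT replicate 1 was below all 4 Cd36KO libraries. Col5a3 was 1.85-fold lower in Cd36KO, a log2 fold change of -0.89 (SE 0.28; DESeq2 adjusted p = 0.0496; edgeR adjusted p = 0.132; exact two-sided permutation p = 0.0571, n = 4 each). Without WT replicate 1 it was -1.13 (DESeq2 adjusted p = 1.81e-06), whereas the call was lost in each of the 7 fits that left out another library, with an adjusted p of up to 0.220, reached without WT replicate 3.

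The summed white fat markers, like Col5a3, were lower in WT replicate 1 than in the other WT libraries. The 8 markers, with Lep and Hoxc8 as the best known, summed to 598, 2784, 3843 and 2908 normalized counts in WT replicates 1 to 4 and to 537, 394, 474 and 395 in the Cd36KO libraries. A single gene, Nnat, carried most of the sum, with 377, 2220, 3105 and 2144 in WT and 370, 245, 403 and 289 in Cd36KO. Within WT, Lep, Hoxc8 and Slc7a10 were lowest in replicate 1 as well. Lep was at 35.2 there against 118 to 150 in the other WT libraries, Hoxc8 at 81.2 against 150 to 303, and Slc7a10 at 27.1 against 196 to 239. Aldh1a1, alone of the 5 markers tested, did not follow Col5a3 within WT, with 75.8, 97.7, 56.5 and 107 there against 12.3 to 34.5 in Cd36KO. Of the 5 markers tested, 4 were called lower in Cd36KO by both DESeq2 and edgeR, beside 1.53% and 0.102% of all genes, and the median log2 fold change was -2.46. Hoxc10 and Tcf21, a pair of defining markers, were at 0 in all 8 libraries. The sums did not overlap between the groups, so a white fat score entered as a covariate and the genotype cannot be fully told apart. In that fit, which called 113 genes lower and 481 higher over all genes, the log2 fold change of Col5a3 was 0.66 (DESeq2 adjusted p = 0.339) and that of Col1a2 was -1.60 (DESeq2 adjusted p = 0.00436). Whether white fat has a part in the Col5a3 result was not tested apart from genotype.

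**Figure D3:**
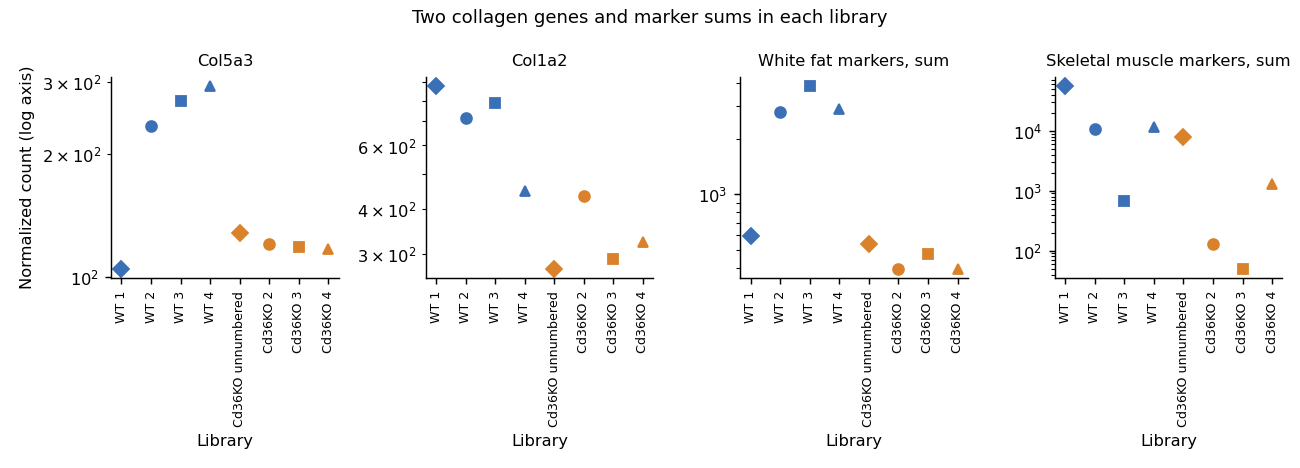
Normalized counts (log axes) of Col5a3 and Col1a2 and the summed normalized counts of the white fat and skeletal muscle markers, in each WT (blue) and Cd36KO (orange) library. WT replicate 1 is below all Cd36KO libraries in Col5a3 (105) and closest to them, though above all 4, in white fat markers (598), and is the highest library in Col1a2 (877) and in muscle markers (55305).

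The skeletal muscle markers summed to 55305, 10818, 669 and 11745 normalized counts in WT and to 7810, 128, 49.1 and 1305 in Cd36KO. Of these 12 markers 0 were called by DESeq2 or edgeR, 6 were lower at an unadjusted p under 0.05, and the median log2 fold change was -3.10, with 12 of 12 negative. With the muscle score as a covariate, Col1a2 kept its call at a log2 fold change of -1.20 (DESeq2 adjusted p = 0.0106), and Col5a3, at -1.08, did not (DESeq2 adjusted p = 0.0811).

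The sequences upstream of the RefSeq starts of the called genes, Col1a2 and Col5a3, and of Col5a1, whose groups did not overlap on either scale, are shown because the comparison turns on these fibrillar genes. They come from RefSeq on build GRCm38.p6 and are written 5′ to 3′ on the strand of the gene, from the 250 bases before the RefSeq start. For Col1a2 only the 123 bases that no annotated exon covers are shown, since GENCODE places exons on the other 127 of the 250 bases, and that stretch ends 126 bases before the start. The Col1a2 stretch lies inside the gene span given above, so it is upstream of the RefSeq start but not of the annotated gene. Capitals mark letter matches on either strand. The motifs searched were the CCAAT box, by those letters, and the binding motif of SMAD proteins of the TGF-beta pathway, the letters CAGAC. The GC box, known as a place where Sp1 can bind, was searched for as GGGCGG. The TATA box, which in some promoters helps to place the transcription start a short way downstream of it, was searched for as TATAAA. No motif overlaps another in the stretches shown.

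Col1a2, chr6:4505370-4505492, plus strand: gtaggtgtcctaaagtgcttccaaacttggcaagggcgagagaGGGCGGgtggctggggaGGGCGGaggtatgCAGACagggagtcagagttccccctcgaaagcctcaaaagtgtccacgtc

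Col5a3, chr9:20815068-20815317, minus strand: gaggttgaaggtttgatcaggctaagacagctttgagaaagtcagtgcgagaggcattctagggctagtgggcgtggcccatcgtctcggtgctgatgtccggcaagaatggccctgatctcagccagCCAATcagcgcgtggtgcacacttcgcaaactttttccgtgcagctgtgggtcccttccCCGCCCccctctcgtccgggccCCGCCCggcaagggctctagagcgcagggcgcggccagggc

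Col5a1, chr2:27886175-27886424, plus strand: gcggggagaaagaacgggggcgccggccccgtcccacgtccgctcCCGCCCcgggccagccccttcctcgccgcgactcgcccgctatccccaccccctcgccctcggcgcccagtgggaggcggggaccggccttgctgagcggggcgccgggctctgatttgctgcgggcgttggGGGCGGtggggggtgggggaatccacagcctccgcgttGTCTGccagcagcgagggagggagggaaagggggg

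The GC content of the stretches was 59.3% for Col1a2, 62.8% for Col5a3 and 76.4% for Col5a1. In the Col1a2 stretch a pair of GC boxes starts 205 and 188 bases before the RefSeq start and CAGAC starts 175 bases before it. A CCAAT box 109 bases before the Col1a2 start lies in the exonic part that is not shown. The Col5a3 window holds a CCAAT box 122 bases before the start and GC boxes on the opposite strand at 63 and 41 bases. Col5a1 has GC boxes on the opposite strand at 205 bases and on its own strand at 73 bases, and CAGAC on the opposite strand at 35 bases. Over the 38 windows of 250 bases that the RefSeq table gives for 35 of the 44 collagen genes, 57.9% held a GC box, 34.2% a CCAAT box, 44.7% CAGAC and 13.2% a TATA box. Among all 32851 windows of that length, 32.7%, 33.8%, 42.2% and 12.4% did. The collagen windows were also richer in G and C, with a median GC content of 59% against 52.4% over all windows, and the part of base composition in the GC box shares was not tested. These are matches of letters only.

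Type IV collagen genes overlapped between the groups. Col4a1 (ENSMUSG00000031502, chromosome 8, 11198423 to 11312826, minus strand) was at 775, 907, 1035 and 705 normalized counts in WT and at 898, 713, 851 and 995 in Cd36KO. The ranges of the groups nearly coincided, and the log2 fold change was 0.016 (SE 0.17; DESeq2 adjusted p = 0.980). Col4a2 (ENSMUSG00000031503, chromosome 8, 11312805 to 11449287, plus strand), which encodes the partner chain, was at 384, 446, 552 and 421 in WT and at 467, 325, 416 and 497 in Cd36KO, a log2 fold change of -0.078 (SE 0.19; DESeq2 adjusted p = 0.899). The genes lie head to head, and their RefSeq starts, 11312826 for Col4a1 and 11312805 for Col4a2 on chromosome 8, overlap by 22 bases on opposite strands. The strand setting of the counting is not given in the sources used here, so reads from those 22 bases cannot be assigned. The same limit applies to 99 and 113 exon bases of Col5a1 that lie opposite 2810430I11Rik and Gm13372, and Col3a1 shares 141 exon bases with Gm47302 on its own strand.

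Col15a1 (ENSMUSG00000028339, chromosome 4, 47208161 to 47313167, plus strand), whose product links the basement membrane to nearby fibres, was at 67.7, 90.03, 78.8 and 98.9 normalized counts in WT and at 76.9, 70.2, 68.5 and 58.0 in Cd36KO. The log2 fold change was -0.30 (SE 0.23; DESeq2 adjusted p = 0.577), and WT replicate 1 lay within the Cd36KO range. Col18a1, the source of endostatin and a gene singled out after its values were seen, was at 31.6 to 52.9 in WT and 15.3 to 32.3 in Cd36KO, a log2 fold change of -0.88 (SE 0.35; DESeq2 adjusted p = 0.154).

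Of the type VI genes, Col6a3 (ENSMUSG00000048126, chromosome 1, 90765923 to 90843971, minus strand), whose chain carries the endotrophin fragment, was at 283, 250, 186 and 262 normalized counts in WT and at 110, 193, 158 and 157 in Cd36KO. Cd36KO replicate 2 lay just above WT replicate 3, the other Cd36KO libraries lay below all WT libraries, and the log2 fold change was -0.67 (SE 0.22; DESeq2 adjusted p = 0.0614). Without Cd36KO replicate 2 it was -0.79 and passed (DESeq2 adjusted p = 0.0257). Col6a3 passed in no other of the 19 fits, and its DESeq2 adjusted p reached 0.887. Col6a1 (ENSMUSG00000001119, chromosome 10, 76708792 to 76726168, minus strand) was at 89.4, 76.4, 112 and 69.2 in WT and at 63.5, 40.3, 88.0 and 52.6 in Cd36KO, a log2 fold change of -0.50 (SE 0.29; DESeq2 adjusted p = 0.399). Col6a2 (ENSMUSG00000020241, chromosome 10, 76595762 to 76623630, minus strand) was at 110, 137, 175 and 130 in WT and at 170, 92.1, 115 and 96.9 in Cd36KO, where the unnumbered library was nearly as high as the highest WT library, and its log2 fold change was -0.22 (SE 0.25; DESeq2 adjusted p = 0.752).

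Col27a1 (ENSMUSG00000045672, chromosome 4, 63214004 to 63334991, plus strand), a fibrillar collagen best known from cartilage, was the most variable of the abundant genes. It was at 288, 109, 263 and 84.1 normalized counts in WT and at 100, 142, 240 and 228 in Cd36KO. Each group held a high and a low pair of libraries, and the log2 fold change was -0.06 (SE 0.38; DESeq2 adjusted p = 0.965). Of 4 cartilage markers only Acan had any count, at 0.763 normalized counts in Cd36KO replicate 4, and the 2 tendon markers summed to at most 7.22. Among the other fibrillar collagens of cartilage, Col11a2 had counts in all 8 libraries, at 4.09 to 16.7 normalized counts, and Col11a1 had 15 of its 17 counts in WT replicate 1.

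Among the genes of low level, Col14a1, a fibril-associated collagen singled out after its values were seen, was at 22.3 to 44.2 normalized counts in WT and 6.86 to 27.9 in Cd36KO, a log2 fold change of -1.19 (SE 0.45; DESeq2 adjusted p = 0.141). It passed only in the fit without the unnumbered Cd36KO library. Col7a1, which forms the anchoring fibrils of skin and was also singled out afterwards, had the largest positive log2 fold change of the 21 genes tested, 0.91 (SE 0.63; DESeq2 adjusted p = 0.519), and 53.5 normalized counts in the unnumbered Cd36KO library against 2.97 to 23.5 in WT and 12.2 to 18.4 in the other Cd36KO libraries. The 3 epidermis markers summed to 0 to 35.2 normalized counts in WT and 3.05 to 29.9 in Cd36KO. Their part in the Col7a1 values was not tested.

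Over the 21 tested genes, which are also those with a mean of at least 10 normalized counts, 2 had all 4 Cd36KO values below all 4 WT values, Col1a2 and Col5a1. Of all 9834 genes with that mean, 3.91% did. In CPM it was 4 genes, Col5a1, Col5a2, Col15a1 and Col18a1, where 4.08% of all genes were parted in this way, so only Col5a1 was parted on both scales. In the other direction it was 0 genes on both scales, beside 4.74% of all genes in normalized counts.

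The make-up of the collagen counts was then followed by library. Collagen genes took 0.145 ± 0.027% of all counts in WT against 0.106 ± 0.005% in Cd36KO (SD, n = 4 each). WT replicate 4, at 0.107%, lay within the Cd36KO range of 0.0998% to 0.112%. Of the counts outside the mitochondrial genome the shares were 0.202 ± 0.032% and 0.152 ± 0.004% (SD, n = 4 each), and the lowest WT library, at 0.157%, was then just above the highest Cd36KO library, at 0.156%.

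Fibrillar genes took 56.5%, 51.4%, 54.3% and 49.8% of the collagen counts in WT replicates 1 to 4, and 44.6%, 49.5%, 41.7% and 43.2% in the Cd36KO libraries. The groups did not overlap, by a narrow margin between WT replicate 4 and Cd36KO replicate 2. Basement membrane genes took 28.2%, 35.004%, 33.6% and 35.1% in WT and 40.8%, 36.0%, 43.1% and 45.2% in Cd36KO, again without overlap and by a narrow margin. The shares add up to the whole, so a lower share of one type raises the others. In summed normalized counts, which do not have this constraint, fibrillar genes had 2345 ± 424 in WT against 1505 ± 135 in Cd36KO, without overlap, network genes 508 ± 28.1 and 381 ± 34.4, without overlap, and basement membrane genes 1449 ± 222 and 1393 ± 187, with overlap (SD, n = 4 each). Fibril-associated genes had 79.3 ± 22.9 and 57.6 ± 21.8, and transmembrane and other genes 24.3 ± 5.70 and 31.3 ± 6.04, both with overlap (SD, n = 4 each).

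**Figure D4:**
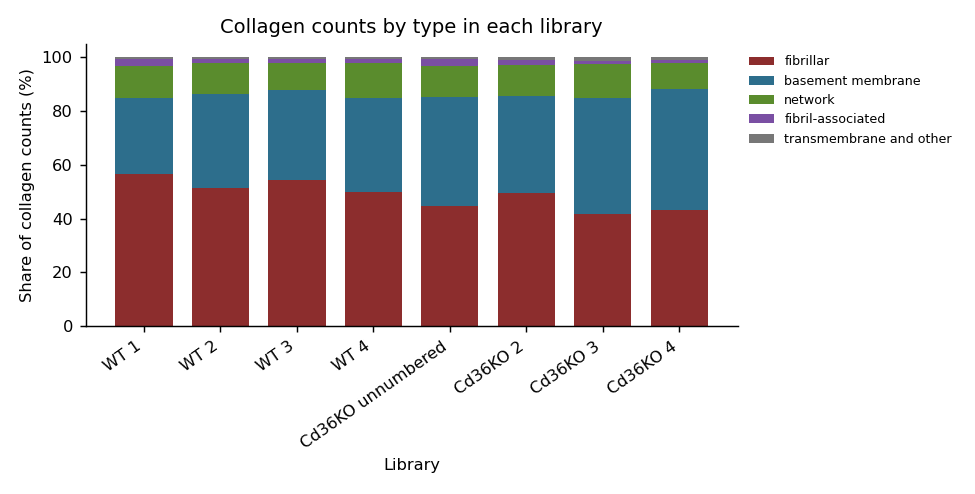
Share of the collagen counts (%) of each library taken by the 5 types of collagen gene, as stacked bars for 4 WT and 4 Cd36KO libraries. The fibrillar share is 49.8% to 56.5% in WT and 41.7% to 49.5% in Cd36KO, and the basement membrane share is 28.2% to 35.1% and 36.0% to 45.2%.

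Ratios of chains that can share a molecule do not depend on library scaling. There were 2.36, 1.94, 1.51 and 1.55 Col1a2 counts per Col1a1 count in WT replicates 1 to 4. The ratio was 0.640 in the unnumbered Cd36KO library and 1.59, 1.21 and 1.02 in Cd36KO replicates 2 to 4. Cd36KO replicate 2 lay within the WT range and the other 3 Cd36KO libraries below it, with group means of 1.84 ± 0.398 and 1.12 ± 0.394 (SD, n = 4 each). The type IV ratio, Col4a2 over Col4a1, was steady at 0.492 to 0.597 in WT and 0.455 to 0.520 in Cd36KO. The ratio of Col6a3 to Col6a1 was 1.66 to 3.79 in WT and 1.74 to 4.80 in Cd36KO, and that of Col5a3 to Col5a1 was 1.04 to 2.55 in WT and 1.54 to 1.73 in Cd36KO. For type VI the libraries within each group differed more than the group means did.

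**Figure D5:**
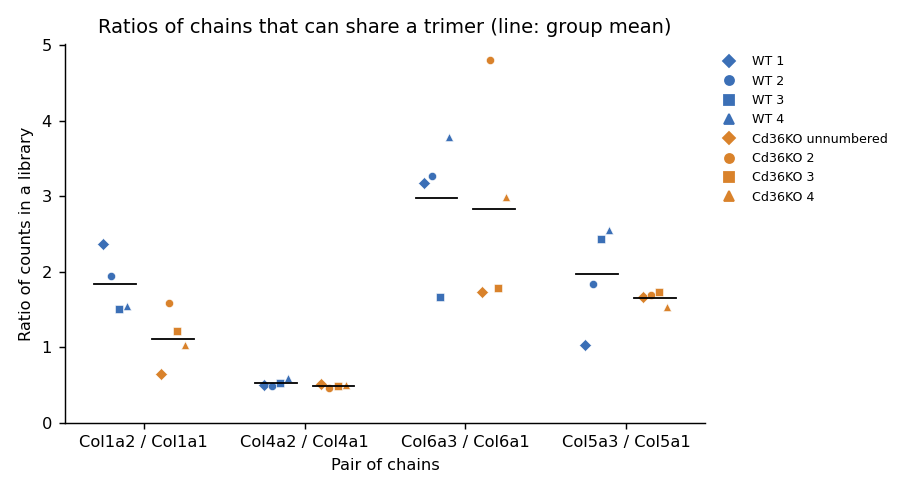
Ratio of the counts of pairs of collagen chains in each WT (blue) and Cd36KO (orange) library, with the group mean as a line. Col1a2 over Col1a1 averages 1.84 in WT and 1.12 in Cd36KO, whereas Col4a2 over Col4a1 stays between 0.455 and 0.597 in all 8 libraries.

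Genes that make, organize and bind collagen were counted from 7 lists with 83 genes, of which 56 were tested. DESeq2 called 3 of the 56 lower and 2 higher, against 1.53% and 1.42% of all genes, and their median log2 fold change was -0.28. Of 13 tested genes that modify and fold the chains, 0 were lower and 1 was higher, with 1 in each direction at an unadjusted p under 0.05, 0 calls by edgeR and a median of -0.25. The gene called was Plod1, a lysyl hydroxylase whose product prepares the chains for crosslinking. Plod1 was at 172, 195, 206 and 141 normalized counts in WT and at 316, 221, 274 and 286 in Cd36KO, all above WT, a log2 fold change of 0.62 (SE 0.19; DESeq2 adjusted p = 0.0422; edgeR adjusted p = 0.136). Serpinh1, the collagen chaperone and the highest gene of this list, overlapped between groups at 214 to 569 and 211 to 421 (DESeq2 adjusted p = 0.727).

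Of 8 genes for secretion and propeptide cleavage, 0 were called by either tool, 1 was lower at an unadjusted p under 0.05 and the median log2 fold change was -0.37. Mia3, which helps to load the bulky molecules into transport carriers and is the highest of the list over the 8 libraries, had a log2 fold change of -0.57 (SE 0.21; DESeq2 adjusted p = 0.112). Of 3 crosslinking enzymes tested, 0 were called by either tool and 0 had an unadjusted p under 0.05, with a median of -0.40, and Loxl1, the highest, was at -0.40 (SE 0.30).

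Of 10 genes that organize fibrils, 1 was lower in both DESeq2 and edgeR, with 4 lower at an unadjusted p under 0.05 and a median log2 fold change of -0.49. It was Dpt, dermatopontin, a small matrix protein that binds decorin and speeds fibril assembly. Dpt was at 133, 313, 313 and 340 normalized counts in WT and at 85.8, 112, 95.1 and 102 in Cd36KO, so that WT replicate 1 stood between the other WT libraries and the Cd36KO libraries. The log2 fold change was -1.48 (SE 0.28; DESeq2 adjusted p = 8.09e-05; edgeR adjusted p = 0.0394). Sparc, the most abundant gene of the list and a collagen-binding protein, was at 3739 to 9021 in WT and 3146 to 6583 in Cd36KO (DESeq2 adjusted p = 0.592), and Dcn, decorin, had a log2 fold change of -0.17 (SE 0.15).

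The 4 receptor genes tested had a median log2 fold change of -0.17, and 0 were called by either tool with 2 lower at an unadjusted p under 0.05. Itga1, the highest of the list over the 8 libraries and the alpha chain of an integrin that binds collagen, had a log2 fold change of 0.14 (SE 0.17). Itgb1, the beta chain shared by the collagen-binding integrins, was at 464 to 607 normalized counts in WT and 417 to 466 in Cd36KO, an overlap of a single pair of libraries (log2 fold change -0.32; DESeq2 adjusted p = 0.245). The 7 genes for degradation and its inhibitors had a median of -0.17 with 0 called by either tool and 1 lower at an unadjusted p under 0.05. Timp3, the matrix-bound inhibitor of metalloproteinases, was the highest of them at 1197 ± 284 in WT against 1021 ± 205 in Cd36KO (SD, n = 4 each).

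Of 11 tested basement membrane partners of type IV collagen, DESeq2 called 2 lower and 1 higher, and edgeR called 0 of 12. At an unadjusted p under 0.05, 4 were lower and 1 higher, and the median log2 fold change was -0.67. Nid1, nidogen, which ties laminin to type IV collagen, was at 184, 250, 423 and 216 normalized counts in WT and at 106, 154, 127 and 110 in Cd36KO, all below WT (log2 fold change -1.11, SE 0.27; DESeq2 adjusted p = 0.00552). Lama4, the laminin alpha chain of vessel and adipocyte basement membranes, was at 237, 312, 409 and 307 in WT and at 172, 236, 180 and 185 in Cd36KO (log2 fold change -0.71, SE 0.21; DESeq2 adjusted p = 0.0304). WT replicate 1 and Cd36KO replicate 2 nearly met for Lama4. Agrn, agrin, a heparan sulfate proteoglycan of basement membranes, was higher, at 162, 99.4, 133 and 115 in WT and at 245, 211, 224 and 173 in Cd36KO (log2 fold change 0.74, SE 0.21; DESeq2 adjusted p = 0.0261). Lamb1, the highest gene of the list, was at 851 ± 36.3 in WT against 884 ± 123 in Cd36KO (SD, n = 4 each).

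Markers of the cells that make or carry collagen were set beside these values. The 9 stromal progenitor and fibroblast markers summed to 484 to 688 normalized counts in WT and 501 to 637 in Cd36KO, overlapping, with 0 of 7 tested called by DESeq2 or edgeR, 1 lower at an unadjusted p under 0.05 and a median log2 fold change of -0.09. With the stromal score as a covariate the log2 fold change of Col1a2 was -0.86 (DESeq2 adjusted p = 0.0402), and that of Col5a3 was -1.03 (DESeq2 adjusted p = 0.0974). In bulk tissue, fewer collagen-making cells and less collagen RNA per cell cannot be told apart. Endothelial markers summed to 1459 to 2008 in WT and 1591 to 2419 in Cd36KO and pericyte and smooth muscle markers to 1053 to 1860 and 940 to 1356, and 0 of 9 in each list were called by DESeq2 or edgeR, with 2 endothelial markers higher and 1 pericyte marker lower at an unadjusted p under 0.05. Of 9 macrophage markers tested, 1 was called lower by DESeq2, Cd163, and 0 by edgeR, with 2 lower and 0 higher at an unadjusted p under 0.05, 6 negative and 3 positive log2 fold changes and sums that overlapped at 853 to 1134 and 765 to 1101. The sums of 4 Schwann cell markers were 118 to 264 in WT and 81.8 to 124 in Cd36KO, and 0 of 3 tested were called by either tool, with 1 lower at an unadjusted p under 0.05. Of the 9 genes in the brown adipocyte list, DESeq2 called 3 higher, Ucp1, Cidea and Cox7a1, beside 1.42% of all genes, and edgeR called 0. At an unadjusted DESeq2 p under 0.05, 5 were higher and 1, Fabp4, was lower, beside 7.69% and 7.88% of all genes. The log2 fold change was positive for Ucp1, Cidea, Dio2, Ppargc1a, Cox7a1 and Elovl3. It was negative for Adipoq, Plin1 and Fabp4, which are general adipocyte genes, and the sums of the list overlapped.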

How the data were processed

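The collagen genes and all gene lists were chosen with earlier results of these data known, so no list is independent evidence. A sequencing service ran the reads for the authors, single-end over 75 cycles, through its digital mRNA-seq pipeline, with bbduk for trimming, STAR for alignment to mm10 and HTSeq-count for counting, as the methods of the study state. The submitters' processing notes instead name Trimmomatic and HISAT2, with GRCm38 and DESeq2. The deposited counts are whole numbers per gene and not normalized, for 8 libraries, 4 per group, and 0 columns of per-sample values were left unused. Strand setting, annotation release and molecular identifiers are not given in the sources used here, so overlapping genes are less certain and intervals or floors cover counting error only. The authors also deposited log2 values, which were checked to equal log2 of the count over a size factor plus 1 (largest difference 5.15e-14) and were used only for limma.

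Groups came from the sample titles. The count table lists 31053 identifiers, 31011 of which matched GENCODE M21 (GRCm38), and 17367 had any count. Library totals were 2679785 to 4097953 counts. Libraries of a group were compared with a chi-square test, and no pair was alike within sampling noise (lowest chi-square per degree of freedom 6.43). DESeq2 1.42.0 in R 4.3.3 (Wald test, genotype only, default independent filtering) was the main test, since the study names it, with Benjamini-Hochberg adjustment over all genes and a threshold of 0.05. Fold changes are of Cd36KO over WT, without shrinkage. Single genes were also tested by an exact two-sided permutation test on log2(CPM + 1) over 70 arrangements (SciPy 1.17.1). Sums, shares, ratios and lists got no test. Both fits were tested on simulated counts first, with 200 of the better-counted genes changed 3-fold, which is more than Col1a2 or Col5a3 differed. Each tool recovered 95.5% of them. Of the calls, 9.48% were false with DESeq2 and 6.83% with edgeR, above the threshold of 0.05. Recovery of smaller changes was not tested. Figures were drawn with matplotlib 3.10.9.

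Values in every library are given for collagen genes with an adjusted p under 0.05 and for the 12 with the highest mean, with partner chains completed, 13 in all. From the 7 lists of collagen-handling genes, the genes called and otherwise the most abundant are named. The marker lists cover brown adipocytes, white fat, stromal progenitors, endothelium, pericytes and smooth muscle, skeletal muscle, macrophages, Schwann cells, cartilage, tendon and epidermis. A marker score is the mean log2 CPM (TMM factors) of its list in a library. Alternatives were edgeR 4.0.16, TMM factors, limma 3.58.1, independent filtering off, at least 10 counts in 4 libraries, 3 marker scores as covariates, a replicate block and leaving out each library. CPM scaling of the overlap count was added after seeing the data. Upstream windows came from RefSeq (GRCm38.p6), where 9 collagen genes had none.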

Additional observations from a re-analysis of the deposited data

Results flagged for a closer look

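Of 82 sets of 4 values examined, 2 held a library far from the other 3 of its group, where chance, at about 1 in 20, gives 4.1.

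The fibril-associated genes took 2.45% of the collagen counts in WT replicate 1, against 1.53% to 1.60% in the other WT libraries. It is the same library that stands apart in its white fat and muscle marker sums.

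The unnumbered Cd36KO library had 2.06 Col3a1 counts per Col1a2 count, against 1.13 to 1.20 in the other Cd36KO libraries. It is also the lowest library in Col1a2 and in the ratio of Col1a2 to Col1a1. What set either library apart was not tested.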

How the results depend on the processing

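The direction of the median log2 fold change over the collagen genes was negative in all 18 alternatives, and the count of genes called higher was 0 in all of them. The count of genes called lower, 2, was 0 with edgeR and 0 with limma, each with 8 genes lower at an unadjusted p under 0.05, but over all 9793 genes edgeR called 10 lower and limma 0, with 872 and 763 lower at an unadjusted p under 0.05. It was 1, Col1a2, with independent filtering off and with the muscle, white fat or stromal score as a covariate, and it ranged from 1 to 2 when a library was left out. TMM factors gave 3 of 14 tested, with 145 of 7602 over all genes. Leaving out WT replicate 2 or 3, or Cd36KO replicate 3 or 4, gave 1 in place of 2. Col1a2 was called in 17 of 19 fits, with an adjusted p of 9.80e-08 to 0.113 and a log2 fold change of -1.60 to -0.86, and Col5a3 in 6 of 19, with an adjusted p of 1.81e-06 to 0.339. The median was -0.50 in the 6 libraries whose number occurs in both groups, which leaves out WT replicate 1 and the unnumbered Cd36KO library, and -0.48 to -0.13 when a library was left out. The count of genes parted between groups, 2, was 4 in CPM. The median gene shifted by -0.06 between the scalings.

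Libraries that share a number in both groups had deviations from the group means that correlated at -0.06, 0.23 and 0.10, so the numbers were not taken as pairs. With the replicate block on 3 pairs, 2 genes were called lower and 0 higher, as without it in the same 6 libraries, and the median was -0.47.

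Reversals came in genes that were not called, Col5a3 excepted. With the white fat score, which parts the groups as the genotype does, Col5a3 was 0.66, Col15a1 0.18, Col1a1 0.043, Col4a2 0.30 and Col6a2 0.43. Col27a1 was 0.040 with limma, 0.55 with the block and 0.43 without the block in the same 6 libraries. Col4a1 was -0.023 with the muscle score, -0.017 with the stromal score, -0.042 with the block and -0.044 without it. Leaving out a library gave -0.30 to 0.23 for Col27a1, -0.067 to 0.12 for Col4a1 and -0.16 to 0.035 for Col4a2. The cause of these changes was not tested.

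The independent filter of DESeq2 left 18 counted collagen genes without an adjusted p, and with the filter off all 39 had one.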

Other observations

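The unnumbered Cd36KO library was also the highest of its group in several collagen genes of low level, which were singled out after their values were seen. Col16a1, a fibril-associated collagen, was at 35.7 normalized counts there against 7.16 to 12.7 in the other Cd36KO libraries and 6.92 to 22.3 in WT. Col14a1 was at 27.9 there against 6.86 to 12.7. Col23a1, a transmembrane collagen, was in contrast lowest there, at 8.91 against 16.1 to 21.5 in the other Cd36KO libraries.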
